A study of Saccharomyces cerevisiae with 50 samples.

Results

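The step from S and G2 phase to mitosis in the first cell cycle of a synchronised budding yeast culture was followed in RNA. The comparison sets the 3 time points at 50, 55 and 60 min after release from alpha factor against the 3 time points at 30, 35 and 40 min. It uses 12 of the 50 arrays and 6 of the 25 time points of the series, and it was described across all 6204 measured open reading frames. The cells were of the laboratory strain W303. They were held in G1 by the pheromone alpha factor, to which MATa cells respond, then released into the rich medium YEPD and sampled every 5 min. Both windows share this arrest and release and differ in time. All Cy3 arrays of the windows carry 1 date in their titles except that of 60 min, which has a later one, and all Cy5 arrays carry 1 date. A second-cycle counterpart, 115 and 120 min against 95, 100 and 105 min, was used as a comparison outside the first-cycle windows. Each sample was hybridised on 2 arrays, with the sample in Cy3 on one and in Cy5 on the other. The opposite dye held RNA of an asynchronous culture grown overnight in YEPD to an OD of 0.6. The dye-swap pair is a technical repeat and was averaged into 1 value per time point. The labels name only 1 synchronised culture, so the p-values below measure how far neighbouring time points of that course scatter, which may be partly technical. The phases were read from RNA alone, by fixed marker genes. The 8 S-phase markers, the core histone genes, had a median above the reference at 30, 35 and 40 min and all fell. Of 6 mitosis markers, CDC5 and CDC20 rose, and CLB1, CLB2, SWI5 and BUD4 had windows that did not overlap, with higher values at 50 to 60 min, but did not pass the test.

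The cell cycle of budding yeast runs as a chain of transcription waves. Genes for DNA synthesis and budding peak in late G1, the core histone genes peak in S phase, and the CLB2 cluster, driven by Mcm1, Fkh2 and Ndd1, peaks from G2 to mitosis. Mitotic cyclins bound to the kinase Cdc28 drive the spindle and nuclear division, the anaphase-promoting complex (APC/C) with Cdc20 then triggers separation of the sister chromatids, and the mitotic exit network and the septum complete division. The MCM and SIC1 clusters are transcribed at the end of mitosis and in early G1 and prepare the next cycle.

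All values are log2 ratios of the sample to the asynchronous reference, so 0 is the reference's own level and no absolute level is given. After arrays were turned to sample over reference, the members of each dye-swap pair had r between 0.359 and 0.516 over all genes, and between 0.550 and 0.721 without values at the deposited limit. That limit is a 100-fold ratio. It was reached by 193 of the values on the 12 arrays, in 166 genes, and 142 values were missing. The median of all genes lay within 0.016 log2 units of 0 at each of the 6 time points. The log base of 10 and the direction of the ratio were inferred from the values and are likely rather than settled, and every log2 value, fold and direction below rests on that reading. With it, the list medians at 0 min were 3.03 for pheromone response genes, 2.96 for MATa-specific genes and -2.96 for the core histones.

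Of 6204 genes, 367 (5.92%) passed an adjusted p of 0.05 in limma with Benjamini-Hochberg adjustment over all genes. Higher at 50 to 60 min were 106 genes (1.71%) and lower were 261 genes (4.21%). Adjusted p lay between 0.0262 and 0.0498 for these genes. The 3 values of a window did not overlap the 3 of the other window in any of the 367, and each had the same sign with the sample in Cy3 and in Cy5, as did 69.3% of all genes. Changes of at least 1 log2 unit were seen in 34 of the genes that rose and 59 of those that fell. Across all genes, windows that did not overlap were common in themselves, at 16.4% of genes upward and 18.7% downward, and 1672 genes had an unadjusted p under 0.05 (11.5% of all genes upward and 15.5% downward). With the sample in Cy3 alone 52 genes rose and 115 fell, with the sample in Cy5 alone 135 rose and 271 fell, and 104 of the 367 genes were called in each orientation alone. The Cy5 arrays of both windows carry 1 title date, so that orientation compares arrays of the same title date. What the date records is not given. The count rests on single time points: without 30, 35 or 55 min limma called 0 genes, and without 60 min it called 1, EMA19 (lower, named after its value was seen), with 1387, 1198, 1147 and 1341 genes at an unadjusted p under 0.05 in those fits. Without 60 min, those unadjusted calls were 8.87% of all genes upward and 12.7% downward. Without 40 min 114 genes rose and 248 fell, and without 50 min 114 rose and 297 fell. All 367 genes kept their sign and an unadjusted p under 0.05 in each of these 6 fits, as did 15.0% of all genes tested. The 367 had been selected by a low p on the same 6 time points, so this was likely in advance and gives no separate support.

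**Figure D1:**
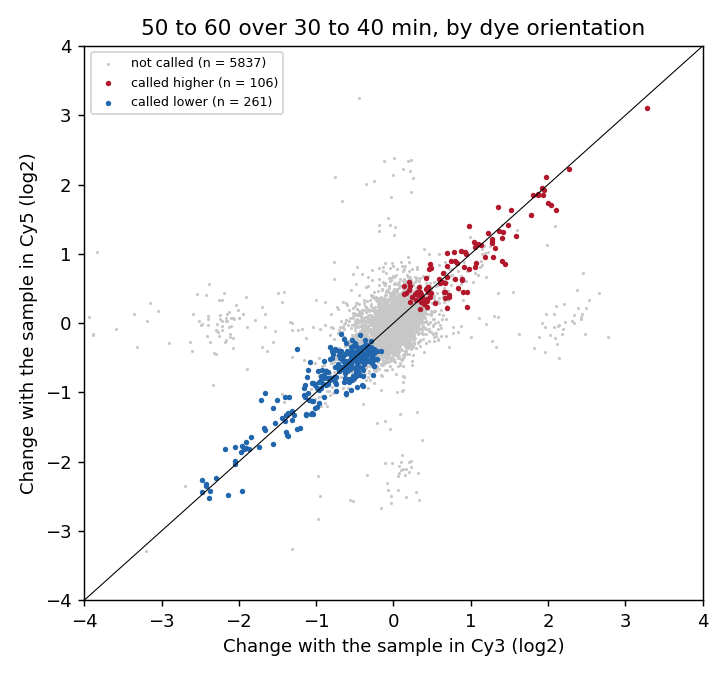
Change at 50-60 min over 30-40 min (log2) with the sample in Cy3 (horizontal) and in Cy5 (vertical), 1 point per gene, with the line of equal change. The 106 called higher genes and the 261 called lower genes lie along the line, while changes of uncalled genes beyond 2 log2 units lie mostly along 1 axis, where only 1 orientation moved. The 5 genes outside 4 log2 units are not drawn.

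Of the 20 measured members of the CLB2 cluster, 10 passed the test as higher and 0 as lower, against 1.71% of all genes higher. The cluster median was 1.06, 1.18 and 1.08 log2 units at 50, 55 and 60 min, against -0.74, -0.28 and 0.27 at 30, 35 and 40 min, and the median change was 1.33. All 20 members had windows that did not overlap, with higher values at 50 to 60 min, and all 20 had an unadjusted p under 0.05, against 11.5% of all genes upward. The cluster was not flat before the later window, since the median step of its members was 0.97 between 30 and 40 min, 0.76 between 40 and 50 min and 0.048 between 50 and 60 min. In RNA of whole cultures, more cells in mitosis and more RNA per mitotic cell cannot be told apart. With 30, 35, 55 or 60 min left out, 0 of the 20 members were called, although 18 to 20 kept an unadjusted p under 0.05.

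**Figure D2:**
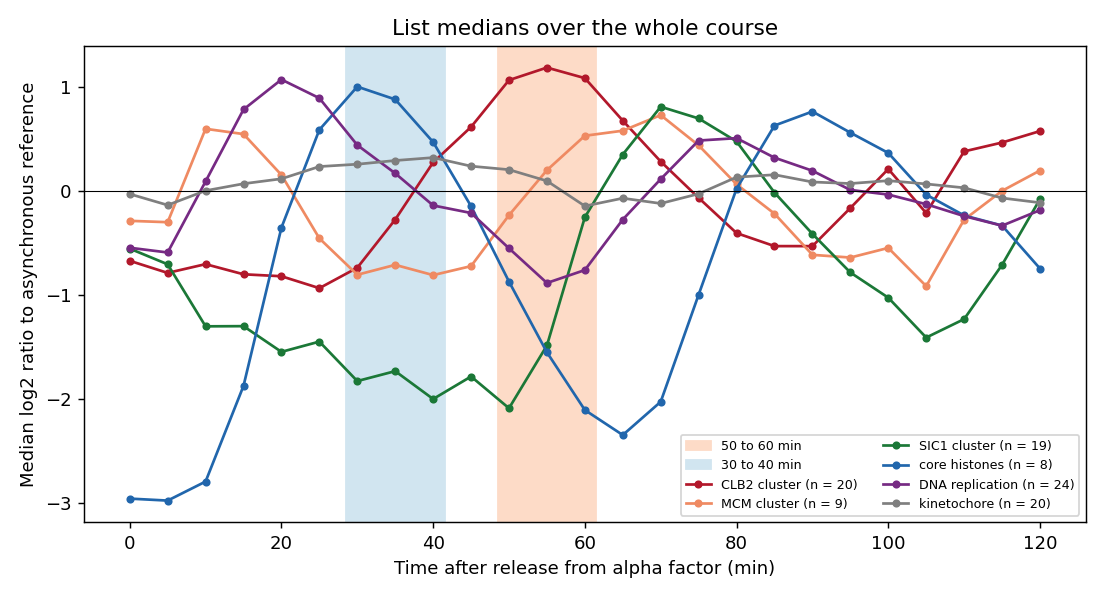
Median log2 ratio to the asynchronous reference (vertical) against time after release in min (horizontal) for 6 gene lists, with the windows of 50 to 60 min and 30 to 40 min shaded. The CLB2 cluster stands near 1 at 50 to 60 min while the core histones fall to -2.11 at 60 min, the MCM and SIC1 clusters climb later, and the kinetochore list stays near 0.

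The B-type cyclins, the regulatory subunits that turn Cdc28 into the S-phase and mitotic kinase, gave no call among 6 members. CLB2, the main mitotic cyclin, stood at 1.16, 1.19 and 1.10 log2 units at 50, 55 and 60 min, against -0.92, -0.26 and 0.39 at 30, 35 and 40 min. The 6 values do not overlap, and the 40 min value lies closest to the later window. Its change was 1.41 ± 0.31 (SE, adjusted p = 0.0517). CLB1, its partner in mitosis, had 1.18, 0.99 and 0.62 over 50 to 60 min, against -1.31, -0.37 and 0.49 over 30 to 40 min, with a change of 1.33 ± 0.44 (SE, adjusted p = 0.120). The 40 min value of CLB1 lies close to its 60 min value. CLB5 and CLB6, the S-phase cyclins, were lower at 50 to 60 min by 0.18 and 0.52 with adjusted p of 0.227 and 0.0904. CLB4, a cyclin of spindle assembly, differed by -0.12 (adjusted p = 0.319). For CLB3 the difference of -1.504 rests on 1 array at 50 min that reads the 100-fold limit, while the other array of that sample reads 0.048.

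The activators of the APC/C and the mitotic exit machinery held 5 called higher members and 2 called lower ones among 18, against 1.71% and 4.21% of all genes. CDC20, which activates the APC/C at anaphase, stood at 0.51, 0.99 and 1.09 log2 units at 50, 55 and 60 min, against -1.09, -1.69 and -0.45 at 30, 35 and 40 min. Every later value exceeds every earlier one, and the lowest is at 35 min. The change was 1.94 ± 0.32 (SE, adjusted p = 0.0329), with 1.93 in the Cy3 orientation and 1.95 in the Cy5 orientation, where the Cy5 arrays alone gave an adjusted p of 0.0593. SPO12, a nucleolar protein of the early anaphase release of the phosphatase Cdc14, had 0.59, 1.18 and 1.31 over 50 to 60 min, against -1.04, -0.89 and -0.61 over 30 to 40 min, a change of 1.87 ± 0.21 (SE, adjusted p = 0.0262). The rise of SPO12 was still going on at 60 min, its highest value of the 6. CDC5, the polo kinase, had 1.15, 1.23 and 1.29 over 50 to 60 min, against -0.63, -0.18 and 0.40 over 30 to 40 min, and rose by 1.36 ± 0.25 (adjusted p = 0.0362). DBF2 and MOB1, the kinase of the mitotic exit network and its binding partner, rose by 1.45 ± 0.22 (adjusted p = 0.0297) and 1.31 ± 0.22 (adjusted p = 0.0341). MOB1 was level over 50 to 60 min, whereas DBF2 had 0.22, 0.76 and 1.06 over 50 to 60 min, against -0.88, -0.85 and -0.58 over 30 to 40 min.

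The called lower members of that list were PDS1 and SLK19. PDS1, the securin that holds separase inactive until anaphase, fell to -0.022, -0.80 and -1.34 at 50, 55 and 60 min, against 0.88, 0.74 and 0.70 at 30, 35 and 40 min, a change of -1.49 ± 0.31 (SE, adjusted p = 0.0482). The 3 earlier values lie close together and the 3 later ones step down. SLK19, a kinetochore and spindle midzone protein, changed by -0.84 ± 0.13 (SE, adjusted p = 0.0301). CDC14, NET1 and CDH1, the exit phosphatase, its nucleolar anchor and the G1 activator of the APC/C, differed by -0.013, 0.19 and 0.18, with adjusted p of 0.922, 0.185 and 0.191. The exit kinase CDC15 differed by -0.92 (adjusted p = 0.523) with a limit value on the Cy5 array at 60 min, and the Cy3 array of that sample reads 0.33. None of the 13 measured APC/C subunits was called, and their median change was 0.033.

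Genes of the contractile ring and the septum gave 3 called higher and 1 called lower member among 14, against 1.71% and 4.21% of all genes. CHS2, the chitin synthase of the primary septum, stood at 1.24, 1.51 and 1.55 log2 units at 50, 55 and 60 min, against -1.37, -0.95 and -0.11 at 30, 35 and 40 min. The later values lie within a narrow band and the 40 min value is the nearest of the earlier ones. Its change was 2.25 ± 0.31 (SE, adjusted p = 0.0262), a 4.74-fold higher ratio, and 2.27 in the Cy3 orientation and 2.22 in the Cy5 orientation. IQG1 and MYO1, the IQGAP and the myosin heavy chain of the ring, rose by 1.42 ± 0.23 (SE, adjusted p = 0.0301) and 1.34 ± 0.21 (SE, adjusted p = 0.0301). HOF1, an F-BAR protein of the bud neck, had 1.24, 1.62 and 1.60 over 50 to 60 min, against -4.13, -1.20 and -0.17 over 30 to 40 min, and its difference of 3.32 did not pass (adjusted p = 0.0903). At 30 min 1 of its 2 arrays reads the limit, and with limit values left out the difference was 2.48 (adjusted p = 0.0106 in limma). BNI5, which links septins to Myo1, fell by 0.88 on the log2 scale (SE 0.15, adjusted p = 0.0348). The light chains MLC1 and MLC2, the formins BNI1 and BNR1, and RHO1 were not called, and differed by 0.18, 0.11, -0.030, -0.34 and -0.13.

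Among septins and their kinases, 3 of 9 members fell and 0 rose, against 4.21% of all genes lower. These 3 are the bud neck kinases HSL1, GIN4 and KCC4, with changes of -1.61 ± 0.29 (SE, adjusted p = 0.0362), -1.24 ± 0.20 (SE, adjusted p = 0.0303) and -0.89 ± 0.18 (SE, adjusted p = 0.0467). For HSL1, 1 array value was missing, and that time point's value rests on the other array. The septins themselves, CDC3, CDC10, CDC11, CDC12 and SHS1, differed by -0.14 to 0.12 and none passed. SWE1, the kinase that inhibits Cdc28 and is brought to the neck for degradation, fell by 1.33 on the log2 scale (SE 0.21, adjusted p = 0.0303). CDC28 itself, CKS1 and CAK1 differed by -0.13, 0.051 and 0.090 and were not called. In bud site selection 1 of 11 members rose and 2 fell, against 1.71% and 4.21% of all genes. RAX2, a landmark protein, had 0.38, 0.34 and 0.27 over 50 to 60 min, against -0.86, -0.56 and -0.13 over 30 to 40 min and rose by 0.84 ± 0.18 (SE, adjusted p = 0.0496). AXL2, the axial landmark, and RSR1, the GTPase that reads the landmarks, fell, with changes of -1.41 ± 0.25 (SE, adjusted p = 0.0358) and -0.89 ± 0.11 (SE, adjusted p = 0.0262). BUD4 and BUD3, both in the CLB2 cluster, were higher by 1.26 (adjusted p = 0.0611) and 0.50 (adjusted p = 0.101) and did not pass.

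Of 18 transcription regulators of the cell cycle, 0 rose and 6 fell, against 4.21% of all genes lower. SWI5, which switches on genes of the SIC1 cluster after mitosis and belongs to the CLB2 cluster, was higher by 1.11 (adjusted p = 0.0646). SWI5 had 1.09, 1.07 and 0.94 over 50 to 60 min, against -0.68, -0.0066 and 0.47 over 30 to 40 min, and its windows do not overlap. FKH2, MCM1 and NDD1, the regulators of the CLB2 cluster, differed by 0.16, 0.043 and -0.31, and FKH1 by -0.092, with adjusted p of 0.186, 0.677, 0.123 and 0.525. The members that fell were TOS4, YOX1, WHI5, PLM2, STB1 and SWI6. TOS4, a forkhead-associated protein, changed by -1.60 ± 0.27 (SE, adjusted p = 0.0329). YOX1, a repressor at early cell cycle boxes, changed by -1.10 ± 0.18 (SE, adjusted p = 0.0303). WHI5, the inhibitor of Start, changed by -0.98 ± 0.19 (SE, adjusted p = 0.0411). PLM2, STB1 and SWI6 fell by 0.58, 0.50 and 0.45 on the log2 scale, with adjusted p of 0.0346, 0.0346 and 0.0262. HCM1, which acts in S phase on spindle genes, had -0.49, -1.10 and -1.55 over 50 to 60 min, against 0.045, 0.19 and -0.17 over 30 to 40 min, and its difference of -1.07 gave an adjusted p of 0.0648.

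Outside the lists, the largest rise was that of MRH1, a membrane protein of the plasma membrane. It stood at 0.34, 0.85 and 1.34 log2 units at 50, 55 and 60 min, against -2.68, -2.46 and -1.92 at 30, 35 and 40 min. The windows lie far apart, and the later values are above the reference while the earlier ones are far below it. The change was 3.19 ± 0.30 (SE, adjusted p = 0.0262), with a 95% interval of 2.48 to 3.91, which is a 9.15-fold higher ratio. It was 3.28 in the Cy3 orientation and 3.11 in the Cy5 orientation. MMR1, which tethers mitochondria to the motor that carries them into the bud, had 1.09, 1.45 and 1.45 over 50 to 60 min, against -1.27, -0.91 and 0.036 over 30 to 40 min and rose by 2.05 ± 0.33 (SE, adjusted p = 0.0303). KIN3, a kinase of the NIMA family and a CLB2 cluster member, had 0.61, 1.39 and 1.64 over 50 to 60 min, against -0.84, -0.76 and -0.35 over 30 to 40 min and rose by 1.87 ± 0.28 (SE, adjusted p = 0.0297). KIN3 was below the reference at all 3 earlier times and highest at 60 min. SFG1, a putative transcription factor of pseudohyphal growth, rose by 1.87 ± 0.29 (SE, adjusted p = 0.0301). The uncharacterised frames YNL058C and YML119W rose by 1.87 ± 0.20 (SE, adjusted p = 0.0262) and 1.86 ± 0.17 (SE, adjusted p = 0.0262), and YNL057W, the frame numbered next to YNL058C, by 1.52 ± 0.23 (SE, adjusted p = 0.0299).

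**Figure D3:**
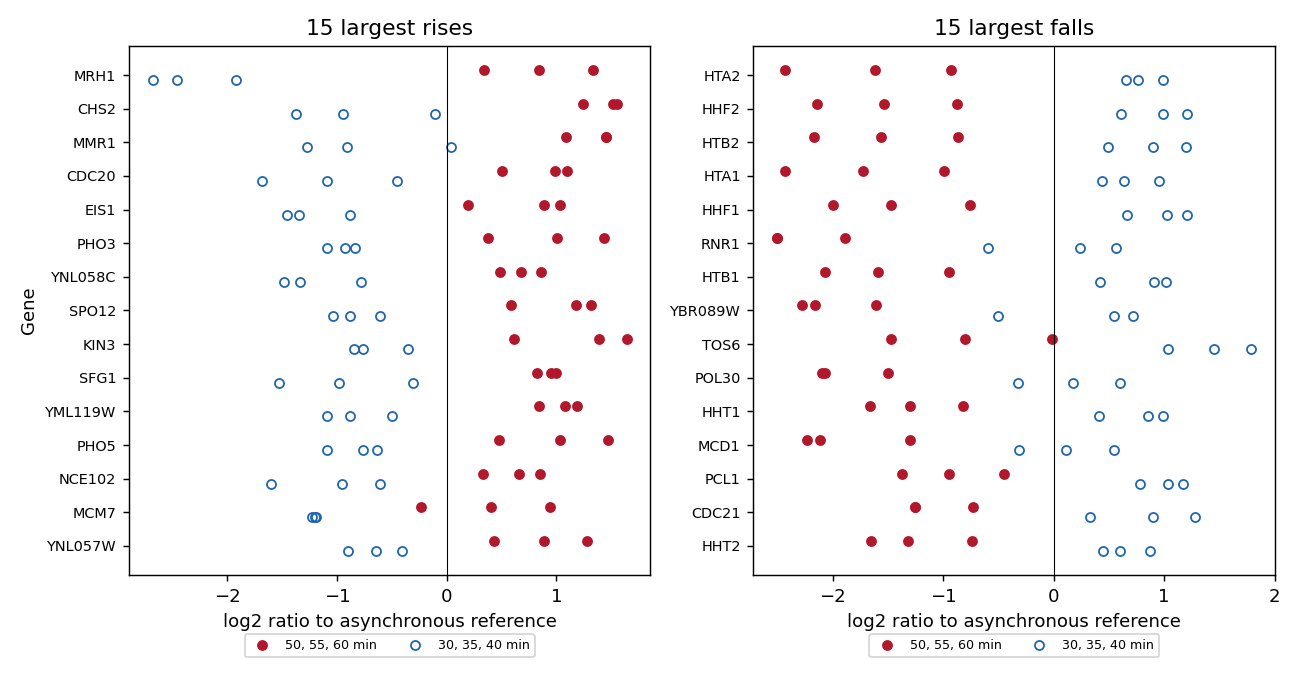
log2 ratio to the asynchronous reference (horizontal) of the 15 genes that rose most (left) and the 15 that fell most (right) among called genes, 1 row per gene. Filled points are the values at 50, 55 and 60 min and open points those at 30, 35 and 40 min, each the mean of 2 arrays; in each row all filled points lie on 1 side of all open points.

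The course of the CLB2 cluster mean over all 25 time points was followed most closely, outside the cluster, by YBR138C (r = 0.979), SFG1 (r = 0.967), MMR1 (r = 0.961), AHC1 (r = 0.954) and IRC8 (r = 0.934). The 25 points share 1 culture and 1 reference, and 6 of them are the time points compared. YBR138C had 1.03, 1.20 and 1.17 over 50 to 60 min, against -0.23, -0.052 and 0.28 over 30 to 40 min and IRC8 had 1.17, 1.10 and 1.16 over 50 to 60 min, against -0.20, -0.040 and 0.30 over 30 to 40 min. Both were nearly level across the later window and climbed during the earlier one. AHC1, a subunit of the ADA histone acetyltransferase complex, had a shallower course, with 0.33, 0.46 and 0.41 over 50 to 60 min, against -0.37, -0.21 and -0.051 over 30 to 40 min. All 5 passed the test as higher at 50 to 60 min.

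The MCM cluster, which holds the helicase subunits and cell cycle entry genes that are transcribed between mitosis and G1, gave 4 called higher members of 9 and 0 lower, against 1.71% of all genes higher. Its median stood at -0.23, 0.20 and 0.53 at 50, 55 and 60 min, against -0.81, -0.71 and -0.81 at 30, 35 and 40 min. The median was flat through the earlier window (step of -0.11) and gained 0.78 between 50 and 60 min, with 8 of 9 members higher at 60 than at 50 min. MCM7 had -0.23, 0.41 and 0.94 over 50 to 60 min, against -1.19, -1.23 and -1.20 over 30 to 40 min, a change of 1.58 ± 0.28 (SE, adjusted p = 0.0356), and the Cy3 arrays alone gave an adjusted p of 0.0572. MCM4 and MCM6 rose by 1.15 ± 0.18 (SE, adjusted p = 0.0299) and 0.91 ± 0.14 (SE, adjusted p = 0.0301). CLN3, the G1 cyclin that starts the next cycle, had -0.15, 0.039 and 0.28 over 50 to 60 min, against -0.81, -0.54 and -0.74 over 30 to 40 min and rose by 0.75 ± 0.13 (SE, adjusted p = 0.0346). MCM2, MCM3 and MCM5 were higher by 0.89, 0.89 and 1.12 with adjusted p of 0.0698, 0.0545 and 0.0760. CDC6, which loads the helicase, was higher by 0.65 (adjusted p = 0.147). SWI4, the DNA-binding subunit of SBF, was lower by 0.43 (adjusted p = 0.0621).

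The SIC1 cluster, transcribed as cells leave mitosis, with members such as the Cdc28 inhibitor SIC1 and daughter cell genes, had 0 called higher and 1 called lower member of 19, against 1.71% and 4.21% of all genes. Its median was -2.09, -1.49 and -0.25 at 50, 55 and 60 min, against -1.83, -1.73 and -2.002 at 30, 35 and 40 min. The 50 min median was as low as those of the earlier window, and most of the difference lay between 55 and 60 min, so the mean of 3 later points mixes low and high values. SIC1 itself had -1.48, -1.10 and -0.060 over 50 to 60 min, against -1.45, -1.26 and -1.37 over 30 to 40 min. ASH1, the repressor of mating-type switching in daughters, had -1.84, -0.92 and 0.69 over 50 to 60 min, against -1.83, -1.71 and -2.08 over 30 to 40 min. EGT2, a cell separation gene, had -3.94, -3.46 and -0.91 over 50 to 60 min, against -3.64, -3.92 and -4.06 over 30 to 40 min. In all 3 genes the 50 min value is within the range of, or next to, the earlier window. The 55 min value is above every earlier one, and the 60 min value is the highest. Their differences of 0.48, 1.18 and 1.10 carried adjusted p of 0.400, 0.257 and 0.384. DSE2, a daughter cell glucanase, was the called lower member (-0.58 ± 0.077 (SE, adjusted p = 0.0262)), at -4.03, -4.04 and -4.24 over 50 to 60 min, against -3.49, -3.55 and -3.53 over 30 to 40 min. With quantile normalization between arrays its difference turned to 1.06 (adjusted p = 0.241).

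All 8 core histone genes, which package newly made DNA, fell, and 0 rose, against 4.21% of all genes lower. Their median was -0.87, -1.55 and -2.11 log2 units at 50, 55 and 60 min, against 1.0005, 0.88 and 0.47 at 30, 35 and 40 min, a median change of -2.38. HTA2, an H2A gene, had -0.93, -1.62 and -2.43 over 50 to 60 min, against 0.99, 0.76 and 0.65 over 30 to 40 min, a change of -2.46 ± 0.36 (SE, adjusted p = 0.0291). It fell at every step between 30 and 60 min, and its ratio was 5.50-fold lower in the later window. The other 7 had changes between -2.46 (HHF2) and -1.88 (HHT2), each with windows apart. The 2 genes of each histone type are nearly identical in coding sequence, and how far their array elements tell them apart was not tested.

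Regulators of G1 and S phase gave 12 called lower members of 16 and 0 higher, against 4.21% of all genes lower. Windows were apart in all 16, with lower values at 50 to 60 min, against 18.7% of all genes downward. RNR1, the large subunit of ribonucleotide reductase, stood at -1.89, -2.503 and -2.504 log2 units at 50, 55 and 60 min, against 0.57, 0.24 and -0.60 at 30, 35 and 40 min. It was already below the reference at 40 min and level between 55 and 60 min. The change was -2.37 ± 0.32 (SE, adjusted p = 0.0262). PCL1 and CLN2, cyclins of Pho85 and of Cdc28 in late G1, fell by 1.92 (SE 0.24, adjusted p = 0.0262) and 1.87 (SE 0.30, adjusted p = 0.0303) on the log2 scale. TOS6, a cell wall protein, had -0.012, -0.81 and -1.48 over 50 to 60 min, against 1.79, 1.45 and 1.03 over 30 to 40 min and changed by -2.19 ± 0.38 (SE, adjusted p = 0.0356). SVS1 and CSI2, cell surface genes of the same wave, changed by -1.84 ± 0.29 and -1.81 ± 0.24, with adjusted p of 0.0301 and 0.0262. CLN1 was lower by 1.28 with an adjusted p of 0.0617.

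Of 24 DNA replication genes, 13 fell and 0 rose, against 4.21% of all genes lower, and the median change was -0.99. POL30, the sliding clamp PCNA, had -1.499, -2.07 and -2.10 over 50 to 60 min, against 0.60, 0.17 and -0.33 over 30 to 40 min, a change of -2.04 ± 0.27 (SE, adjusted p = 0.0262). YBR089W, a dubious frame that overlaps POL30, had -1.61, -2.28 and -2.17 over 50 to 60 min, against 0.71, 0.54 and -0.50 over 30 to 40 min, and signal of the pair cannot be told apart. CDC21, thymidylate synthase, had -0.73, -1.26 and -1.25 over 50 to 60 min, against 1.28, 0.90 and 0.33 over 30 to 40 min and changed by -1.92 ± 0.27 (SE, adjusted p = 0.0262). POL1, the catalytic subunit of DNA polymerase alpha, changed by -1.86 ± 0.17 (SE, adjusted p = 0.0262), and its other subunits POL12 and PRI2 by -1.23 ± 0.21 and -1.10 ± 0.20 (adjusted p = 0.0329 and 0.0362). RFA1, RFA2 and RFA3, the subunits of the single-strand binding protein RPA, fell by 1.40, 1.65 and 0.82 on the log2 scale, with adjusted p of 0.0348, 0.0362 and 0.0362. The flap nuclease RAD27 and the ligase CDC9 changed by -1.48 and -0.96 (adjusted p = 0.0262 and 0.0262). The clamp loader genes RFC1 to RFC5 were not called, with differences between -0.29 and 0.091. The replication median was -0.55, -0.89 and -0.76 at 50, 55 and 60 min, against 0.44, 0.17 and -0.14 at 30, 35 and 40 min, so its lowest point came before that of the histones.

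Cohesion genes, which hold sister chromatids together, gave 5 called lower members of 10, against 4.21% of all genes lower. MCD1, the cohesin subunit cut by separase, had -1.30, -2.12 and -2.23 over 50 to 60 min, against 0.55, 0.11 and -0.31 over 30 to 40 min and changed by -1.9999 ± 0.31 (SE, adjusted p = 0.0301). SMC3, IRR1, PDS5 and CTF18 fell by 1.34, 1.09, 1.41 and 1.05 on the log2 scale. SMC1 was lower by 0.84 (adjusted p = 0.0611), while the loader genes SCC2 and SCC4 differed by -0.0052 and -0.076 (adjusted p = 0.978 and 0.414). None of the 6 condensin and topoisomerase II genes was called. TOP2, which untangles the sister chromatids, was lower by 1.05 (adjusted p = 0.0741).

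**Figure D4:**
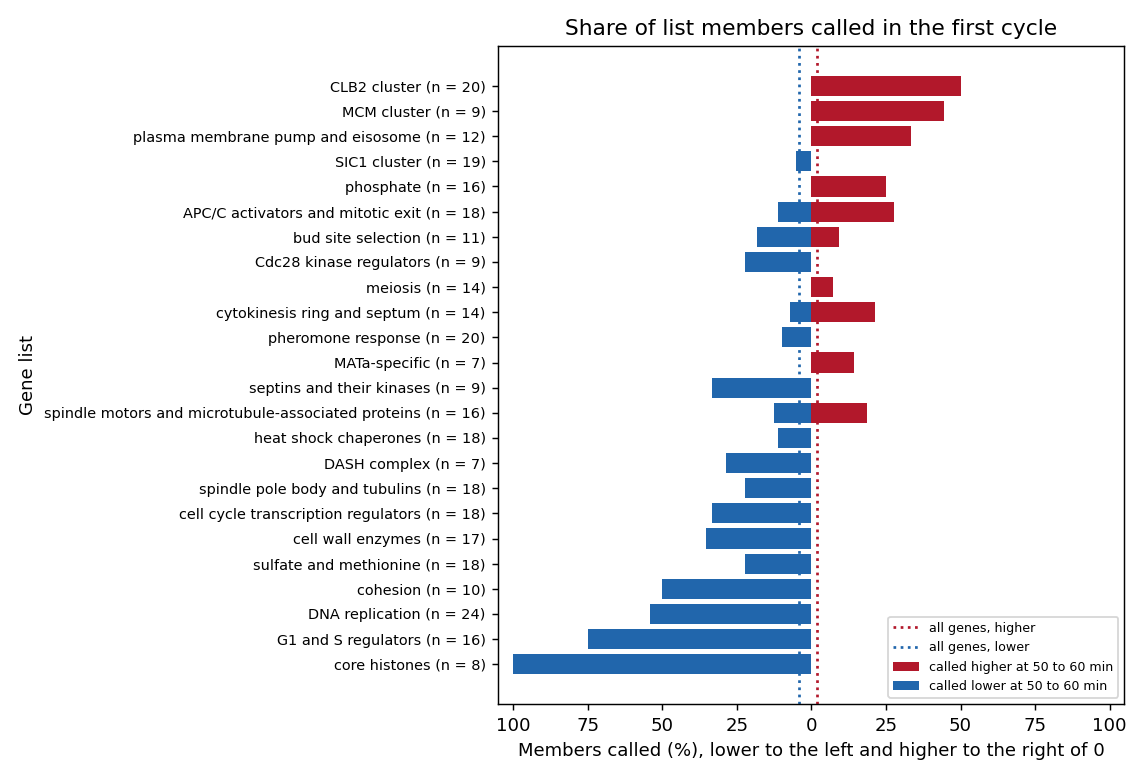
Share of the measured members of each list (in %, horizontal) called higher (right of 0) or lower (left of 0) at 50 to 60 min than at 30 to 40 min, with dotted lines at the shares among all genes, 1.71% and 4.21%. Lists without a call are left out; the CLB2 cluster reaches 10 of 20 members higher and the core histones 8 of 8 lower.

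Most members of each spindle list were lower at 50 to 60 min, and calls went in both directions only among the motors. Lower were 11 of 16 motors and microtubule-associated proteins and 16 of 18 spindle pole body and tubulin genes. Among 16 motors and microtubule-associated proteins, 3 rose and 2 fell, against 1.71% and 4.21% of all genes. ASE1, which bundles the spindle midzone in anaphase and belongs to the CLB2 cluster, had 0.94, 1.01 and 0.89 over 50 to 60 min, against -0.77, -0.28 and 0.26 over 30 to 40 min and rose by 1.21 ± 0.25 (SE, adjusted p = 0.0453). KIP2, a kinesin of cytoplasmic microtubules, and DYN1, the dynein heavy chain that pulls the nucleus into the bud neck, rose by 0.64 ± 0.067 (SE, adjusted p = 0.0262) and 0.46 ± 0.091 (SE, adjusted p = 0.0439). CIN8 and KAR3, motors of spindle assembly, changed by -0.95 ± 0.19 (SE, adjusted p = 0.0422) and -0.65 ± 0.11 (SE, adjusted p = 0.0346). Against 4.21% of all genes lower, 4 of 18 spindle pole body and tubulin genes fell. These were SPC97, of the gamma-tubulin complex, SPC42, a core layer protein, NUD1, the scaffold of the exit network, and BBP1, with changes of -0.86, -0.63, -0.60 and -0.45. The tubulin genes TUB1, TUB2 and TUB3 differed by -0.12, -0.25 and -0.073 and were not called. In the DASH ring, which couples kinetochores to microtubules, 2 of 7 measured members fell, against 4.21% of all genes lower. DUO1 and SPC34 fell by 0.69 and 0.48 on the log2 scale, and 6 of the 7 were lower at 50 to 60 min. None of 20 kinetochore genes was called, with a median of -0.23. Of the 20, 18 were lower at 50 to 60 min, while 50.7% of all genes were higher. The lowest adjusted p among the kinetochore genes was that of MIF2 at 0.0536 in limma. The 10 genes of the Aurora complex and the spindle checkpoint gave 0 calls, with 8 of them lower at 50 to 60 min. The -1.72 of BUB1 includes a limit value at 55 min.

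Genes of the cell surface changed in both directions. In the list of the plasma membrane proton pump and eisosomes, membrane furrows that hold protein and lipid, 4 of 12 members rose and 0 fell. Of all genes, 1.71% rose and 4.21% fell. NCE102, a sphingolipid-sensing eisosome protein, had 0.33, 0.66 and 0.85 over 50 to 60 min, against -1.60, -0.96 and -0.61 over 30 to 40 min and rose by 1.67 ± 0.27 (SE, adjusted p = 0.0301). PMA1, the proton pump, had 0.29, 0.49 and 0.48 over 50 to 60 min, against -0.54, -0.23 and -0.24 over 30 to 40 min and rose by 0.76 ± 0.11 (SE, adjusted p = 0.0287). Its close paralog PMA2 and its small regulator PMP1 rose by 0.84 (adjusted p = 0.0301) and 1.07 (adjusted p = 0.0262), and PMA1 and PMA2 may share signal. EIS1, an eisosome protein outside the list, had 0.19, 0.89 and 1.04 over 50 to 60 min, against -1.35, -1.46 and -0.88 over 30 to 40 min and rose by 1.94 ± 0.26 (SE, adjusted p = 0.0262). PIL1 and LSP1, the main eisosome coat proteins, differed by 0.25 and 0.31 with adjusted p of 0.465 and 0.201.

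In the phosphate list 4 of 16 members rose and 0 fell, against 1.71% and 4.21% of all genes. All 4 are secreted acid phosphatases. PHO5 stood at 0.48, 1.03 and 1.47 log2 units at 50, 55 and 60 min, against -0.64, -0.77 and -1.09 at 30, 35 and 40 min. The earlier values lie below the reference and the later ones above it and still climbing. Its change was 1.83 ± 0.26 (SE, adjusted p = 0.0265). PHO3 had 0.38, 1.01 and 1.43 over 50 to 60 min, against -0.84, -1.09 and -0.93 over 30 to 40 min, a change of 1.89 ± 0.26 (SE, adjusted p = 0.0262). PHO11 and PHO12 rose by 1.23 ± 0.20 (SE, adjusted p = 0.0314) and 1.20 ± 0.21 (SE, adjusted p = 0.0358). PHO5 with PHO3 and PHO11 with PHO12 are close in sequence, and how far their array elements tell them apart was not tested. The transporter PHO84 and the polyphosphate gene VTC3 differed by -0.13 and 0.066, with adjusted p of 0.470 and 0.644. The vacuolar phosphatase PHO8 was lower by 0.50 (adjusted p = 0.0591).

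Of 17 cell wall enzymes 6 fell and 0 rose, against 4.21% of all genes lower. CRH1, which joins chitin to glucan, had -0.70, -1.18 and -0.91 over 50 to 60 min, against 1.13, 0.88 and 0.48 over 30 to 40 min and changed by -1.76 ± 0.20 (SE, adjusted p = 0.0262). MNN1, a Golgi mannosyltransferase, and SCW10, a wall glucanase, changed by -1.4996 ± 0.23 (SE, adjusted p = 0.0301) and -1.36 ± 0.21 (SE, adjusted p = 0.0301). The glucan synthase gene GSC2 changed by -0.55 (adjusted p = 0.0262), and its paralog FKS1 was lower by 0.87 without passing (adjusted p = 0.0534). SCW4, a relative of SCW10, was higher by 0.59 (adjusted p = 0.0504). Sulfate assimilation and methionine genes had 4 called lower members of 18, against 4.21% of all genes. All 18 were lower at 50 to 60 min, 14 with windows apart, against 18.7% of all genes. STR3, a cystathionine beta-lyase, had 0.75, 0.34 and 0.32 over 50 to 60 min, against 1.34, 1.66 and 1.71 over 30 to 40 min and changed by -1.10 ± 0.15 (SE, adjusted p = 0.0262). MET1, MET28 and MET8 fell by 0.55, 0.54 and 0.38 on the log2 scale.

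Markers of other states were read as ratios to a reference of the same strain, which gives no absolute level. Beside each count of called genes that follows stand 1.71% of all genes called higher and 4.21% called lower. Of 7 MATa-specific genes 1 was called: STE6, the exporter of a-factor, had -1.04, -0.49 and -0.15 over 50 to 60 min, against -1.67, -1.75 and -1.58 over 30 to 40 min and rose by 1.11 ± 0.22 (SE, adjusted p = 0.0422). The receptor gene STE2 had -1.58, -1.21 and -0.53 over 50 to 60 min, against -1.995, -1.97 and -1.91 over 30 to 40 min (adjusted p = 0.0943). The 4 MATalpha-specific genes differed by 0.016 to 0.21, with values between -0.50 and 0.47 at all 6 time points, and none was called. Of 14 meiosis genes, SPS4 alone was called (0.85 ± 0.12 (SE, adjusted p = 0.0262)). Among 20 pheromone response genes KAR4 and PRM5 fell, by 0.46 and 0.38 on the log2 scale. FAR1, the pheromone-induced inhibitor of Cdc28, was higher by 0.99 (adjusted p = 0.0793). Of 18 heat shock chaperones HSP26 and SSE1 fell, by 0.45 and 0.33 on the log2 scale, and all 18 were lower at 50 to 60 min, while 50.7% of all genes were higher. The part of this shift in the other results was not tested. No gene was called among 22 ribosome biogenesis, 20 ribosomal protein, 24 oxidative phosphorylation, 31 proteasome, 18 glycolysis, 15 trehalose and glycogen and 7 reference genes, whose median changes lay between -0.026 and 0.16. Higher at 50 to 60 min were 28 proteasome, 19 ribosomal protein, 19 oxidative phosphorylation and 18 ribosome biogenesis genes. So were 8 glycolysis, 10 trehalose and glycogen and 4 reference genes. Windows were apart upward in 14 of the 31 proteasome genes, against 16.4% of all genes.

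The called genes were not all at their extreme inside the later window. Between 45 and 85 min, 81 of the 106 genes that rose were highest at 50, 55 or 60 min, 2 at 45 min and 23 at 65 min or later. Their most common peak was 60 min, with 50 genes. Of the 261 genes that fell, 96 were lowest at 60 min, 65 at 55 min and 49 at 65 min. At 60 min 92 of the 106 stood higher than at 50 min and 213 of the 261 stood lower.

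The second-cycle windows did not cover the same levels as those of the first. The CLB2 cluster median was 0.46 and 0.57 at 115 and 120 min, against -0.17, 0.21 and -0.21 at 95, 100 and 105 min. It had been 1.06, 1.18 and 1.08 at 50, 55 and 60 min. The core histone median was -0.33 and -0.75 at 115 and 120 min, against -2.11 at 60 min. Over all genes, the 105 min pair mean had a standard deviation of 0.663 log2 units. At 95 and 100 min it was 0.351 and 0.343, and at 115 and 120 min 0.497 and 0.439. The 105 min Cy5 array also carries a title date that the other Cy5 arrays of these windows do not share. How far the second-cycle medians and shares below rest on 105 min was not tested. At 115 to 120 min against 95 to 105 min, limma called 4 genes (0.0645%; 1 higher, 3 lower), with 486 at an unadjusted p under 0.05. The 4 called genes were PHD1 (higher) and ZPS1, GAT3 and YOR203W (lower), which lie outside the naming rule and were picked after their values were seen, and none of them was called in the first cycle. Of the 106 genes that rose in the first cycle 99 (93.4%) were higher again, against 55.1% of all genes, with a median change of 0.36. Of the 261 that fell 202 (77.4%) were lower again, against 44.9% of all genes, with a median of -0.19. Windows were apart in the same direction for 55 and 65 of them, against 10.2% of all genes upward and 7.45% downward. Over all genes, 60.6% had the same sign in both cycles. The list medians in the second cycle were 0.46 for the CLB2 cluster, 0.72 for the MCM cluster, -0.85 for the core histones and -0.54 for the G1 and S regulators. PHO5 and PHO3 differed by 1.83 and 1.89 in the first cycle, and by 1.81 and 1.61 in the second. The first and second values were 3.19 and 1.54 for MRH1, 2.25 and 1.21 for CHS2, and 1.41 and 0.27 for CLB2.

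The difference between the cycles was itself tested in a fit of all 4 windows, and GAT3 and YOR203W, 2 of 6204 genes (0.0322%), passed, with 419 at an unadjusted p under 0.05. Neither belongs to the lists, and both rest on limit values at 115 and 120 min. With limit values left out, 0 genes passed. None of the listed genes had a called difference between the cycles, so the smaller second-cycle medians stand as a description. The sulfate and methionine list had a median of -0.49 in the first cycle and 0.35 in the second, with only 2 of 18 members of the same sign, and the lowest adjusted p of a difference among them was 0.115. The second window has 2 time points and begins at 115 min, and where the cells of each cycle stood within it was not tested.

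**Figure D5:**
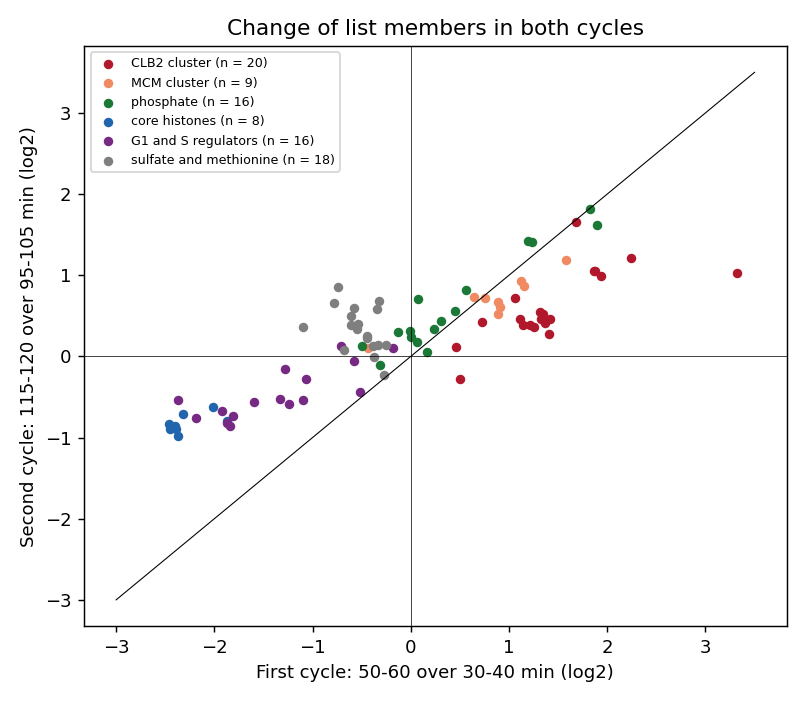
Change at 115-120 min over 95-105 min (vertical, log2) against change at 50-60 min over 30-40 min (horizontal, log2), 1 point per measured gene of 6 lists, with the line of equal change. The CLB2 cluster and the core histones lie closer to 0 on the vertical than on the horizontal axis, the 4 acid phosphatases near the line, and the sulfate and methionine genes left of 0 and mostly above it.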

How the data were processed

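The deposited value table holds log10 ratios of 2-colour arrays made by the authors. Their normalization and centring, the log base and the direction of the ratio are not given in the sources used here. A base of 10 was inferred from the deposited limits of -2 and 2 and from the slope of gene means on gene variances (the covariance of the dye orientations) over 7 windows of about 1 cycle. The expected slopes are -1.15 (log10), -0.500 (natural log) and -0.347 (log2). The slopes were -1.37 to -0.885 over 67 list genes and -0.907 to -0.688 over all genes, where 2 windows (-0.688 and -0.777) lie nearer the natural log, so the base is likely rather than settled. Another base would scale every log2 value by 1 factor and leave the tests unchanged. The correlation of dye-swap pairs as deposited (-0.516 to -0.359) shows that the ratios were not yet turned. It would be the same for Cy3 over Cy5 and cannot give the direction. Cy5 over Cy3 was inferred from the negative sign of those slopes, which sample over reference requires, so the direction is likely rather than stated. The lowest correlation between arrays within an orientation was 0.183 (Cy3) and 0.0921 (Cy5), and array medians ran from -0.000685 to 0.0158 on the log10 scale.

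Of 6217 lines, 13 control or incomplete lines were left out. The R64 gene table named 5704 of the 6204 open reading frames and was used for names only. After conversion to log2, each array was turned to sample over asynchronous reference, and each dye-swap pair was averaged. limma 3.58.1 in R 4.3.3 fitted 3 against 3 time points, with Benjamini-Hochberg adjustment over all genes and a threshold of 0.05, two-sided. The method was tested on simulated data.

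The text names the 15 largest rises and falls among called genes with windows apart and the same sign in each orientation, called members of 37 gene lists (510 of 514 names measured), cyclins and transcription regulators, the largest called differences between the cycles, and the 5 courses most like the CLB2 cluster mean. The members and lists were chosen with earlier results of these data known, so no list has a test. A planned description of promoter motifs is not analysed here. Alternatives covered the dye orientation, each time point, the title date, pair averaging, limit values, centring, quantile normalization and the variance prior.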

Additional observations from a re-analysis of the deposited data

Results flagged for a closer look

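For 2 genes the change of the first cycle (50 to 60 min over 30 to 40 min) and that of the second (115 to 120 min over 95 to 105 min) differed in limma's test of the difference, at an adjusted p of 0.00283 each. GAT3, a GATA-family zinc finger gene, had a difference of 3.38 log2 units. At 115 and 120 min its Cy5 arrays read the 100-fold lower limit, while its Cy3 arrays read 0.38 and 0.24. YOR203W had a difference of 3.63. At 115 min its Cy5 array and at 120 min its Cy3 array read that limit, and the other array of each pair read -0.11 and 0.14. In both genes 1 array of each pair lies near the reference, and with limit values left out limma called 0 differences.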

How the results depend on the processing

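Leaving out 1 time point moved the counts of the first-cycle comparison to between 0 and 114 genes higher and between 0 and 297 lower, and the called genes in lists, 97 of the 367, to between 0 and 116. Leaving out 60 or 105 min moved the genes whose change differed between the cycles from 2 to 4 and 11. With the sample in Cy3 alone 52 genes were higher and 115 lower. The 12 arrays with a dye term and time point as a random block gave 405 and 648 (192 in lists, 38.5% of calls higher against 28.9%), and with a date term added 309 and 542 (170 in lists). Limit values set to missing gave 185 and 403, and a spread pooled over 4 windows, added after the data were seen, 76 and 152. Quantile normalization gave 151 and 271, with 35.8% of calls higher. The differences between cycles came to 1 gene in each orientation alone and 0 with limit values missing, an alternative also added later, as was the use of unadjusted p in fits that leave out a time point. The 30 genes with the largest changes kept their direction in every fit, at 0.820 to 1.41 times the reported value; apart from fits that left out a time point, CDC20, MCM7 and TOS6 lost the call in 4 cases. No paired analysis was possible because the windows hold different time points of 1 course and share no replicate numbers in the labels. The cause of these shifts was not tested. The number of arrays limits precision, and values at the 100-fold limit carry only a bound.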

Other observations

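Further gene groups were noticed among the called genes and were chosen after their values were seen, so their counts carry no test. Of 20 genes of the iron uptake regulon, 6 rose and 0 fell, against 1.71% of all genes higher. ENB1 and ARN1, siderophore transporters, rose by 0.97 and 0.70, FET3 and FTR1, the high-affinity iron oxidase and permease, by 0.88 and 0.42, and the wall mannoproteins FIT2 and FIT3 by 0.67 and 0.51 (adjusted p between 0.0262 and 0.0422 in limma). In the second cycle these genes changed by -0.16 (FIT2) to 0.42 (ENB1). Among lower genes, which were 4.21% of all genes, 6 of 8 p24 proteins, which sort cargo into vesicles leaving the endoplasmic reticulum, fell, led by ERP3 at -1.36 and EMP24 at -0.67. Of 7 protein O-mannosyltransferases 4 fell (all genes 4.21%), PMT3 by 0.80 and PMT1 by 0.67 on the log2 scale.

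The same share of 4.21% of all genes stands beside each count of lower genes that follows. Of 18 histone chaperones and regulators 6 fell, among them the linker histone gene HHO1 (-1.23) and the chaperone gene ASF1 (-1.18), while the HIR genes HIR1, HIR2 and HIR3 were not called. Of 26 DNA repair and checkpoint genes 8 fell, with MSH6 of mismatch repair at -1.48. RAD52 and MEC1 differed by 0.094 and 0.27 (adjusted p = 0.517 and 0.0994 in limma). In the SNZ and SNO family of vitamin B6 genes 5 of 6 fell, and in the COS family 6 of 10, by 0.32 to 0.52 on the log2 scale. Members of these last families are close in sequence, and how far their array elements tell them apart was not tested.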
